A study of Mus musculus with 9 samples.

Results

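Luzp4, Scarf1, Padi4, Ucn2, Hspb9 and Pet117 are 6 of the 16399 genes listed for each library. They were selected on measured values, as genes whose level separated MC38-LM3b from MC38-LM3a or whose MC38-LM3a replicate 3 stood apart from the other MC38-LM3a libraries. Differences between MC38-LM3b and MC38-LM3a are therefore given here as a description, without a test. MC38-P is the parental line, a mouse colon carcinoma line that carries a GFP and luciferase reporter. MC38-LM3a and MC38-LM3b are separate derivatives of it, each a single line recovered from liver lesions after repeated intrasplenic injection into immunocompetent C57BL/6 mice and expansion in culture. Each group had 3 biological replicates of cultured cells, and RNA was poly(A) selected and sequenced on the DNBSEQ platform. No treatment is named for any group, and the RNA came from cultures rather than from tumours.

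The genes belong to unrelated pathways. Luzp4 takes its name from a human protein of the TREX machinery, which hands spliced mRNA to the nuclear export receptor, and its mouse locus lies on the X chromosome among copies of Ott, a gene expressed in germ cells. Scarf1 is a class F scavenger receptor, best known from endothelial cells, that takes up modified lipoproteins and apoptotic cells. Padi4 is a peptidylarginine deiminase, which converts arginine in histones to citrulline and is best known from neutrophils. Ucn2 is urocortin 2, a secreted ligand of the receptor Crhr2, Hspb9 is a small heat shock protein known from testis, and Pet117 is a mitochondrial protein needed to assemble cytochrome c oxidase.

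Values are TPM, a transcript abundance scaled to transcript length and to a total of 1000000 per library. Between 10875 and 11218 genes reached 1 TPM in a library, and depth is unknown because the files hold no counts. Differences below are on the log2(TPM + 1) scale, which understates changes of genes near or under 1 TPM. The limma test was run on 11287 genes, those that reached 1 TPM in 3 or more libraries, and all 6 genes were among them. Luzp4 reached 1 TPM only in MC38-LM3b, and Scarf1 and Hspb9 only in derivative libraries, so these 3 were tested because of the groups in which they were high. The epithelial label of the cells was checked with 12 markers, of which 7 were tested and 5 stayed under 1 TPM in all libraries, Cdh1, Vil1, Cldn4, Cldn7 and Muc1. Of the 7, 5 fell in the derivatives, 1 rose and 1 did not pass, beside 40.6% of all tested genes past the limit of 0.05 for the adjusted p-value. The gene that rose, Krt20, was tested only because of its level in the derivatives, so its rise is a description. It averaged 0.693 ± 0.134 TPM in MC38-P (SD, n = 3) and 1.48 and 1.15 TPM in MC38-LM3a and MC38-LM3b. It did not pass with quantile normalization (limma adjusted p = 0.0995) or without MC38-P replicate 3 (0.0530). Nor did it pass with offsets that remove trends with GC content and transcript length, the GC and length offsets (limma adjusted p = 0.0724). Krt8 averaged 1127 TPM and Krt18 907 TPM in MC38-P, while Epcam averaged 5.76 TPM there and 2.05 and 2.21 TPM in MC38-LM3a and MC38-LM3b. The intestinal factor Cdx2 averaged 2.27 ± 0.541 TPM in MC38-P and 0.630 ± 0.251 and 0.410 ± 0.141 TPM in the derivatives (SD, n = 3), a difference of -1.10, and was tested only because of its level in MC38-P.

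The comparison that did not choose the genes was that of the derivatives with the parental line. It set the mean of the 2 derivative groups against MC38-P in a limma fit of all 9 libraries, with Benjamini-Hochberg adjustment over all tested genes. Genes past both limits, 0.05 for the adjusted p-value and 1 for the absolute log2 difference, were called differentially expressed (DEGs). Of all tested genes 3.19% were DEGs, 1.88% higher and 1.31% lower, and 40.6% had an adjusted p-value under 0.05. Luzp4, Scarf1 and Padi4 passed both limits and the other 3 genes did not, but Luzp4 and Scarf1 entered the test through the groups in which they were high, so this count is a description. The levels of derivatives and MC38-P did not overlap for the same 3 genes, nor for 31.4% of all tested genes. The spread of this fit is shared with the comparison that chose the genes, so a two-sided exact permutation p-value is given beside each result. With 84 assignments its smallest value is 0.0119, and this smallest value is higher where libraries are left out. Between MC38-LM3b and MC38-LM3a, 0.0266% of tested genes were DEGs, and the 2 groups did not overlap for 42.0% of tested genes, 4337 higher in MC38-LM3b and 406 lower. The median MC38-LM3b minus MC38-LM3a difference over all tested genes was 0.21. It was 0.003 with the GC and length offsets and 0.009 with quantile normalization, and the 2 counts were made without either.

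**Figure D1:**
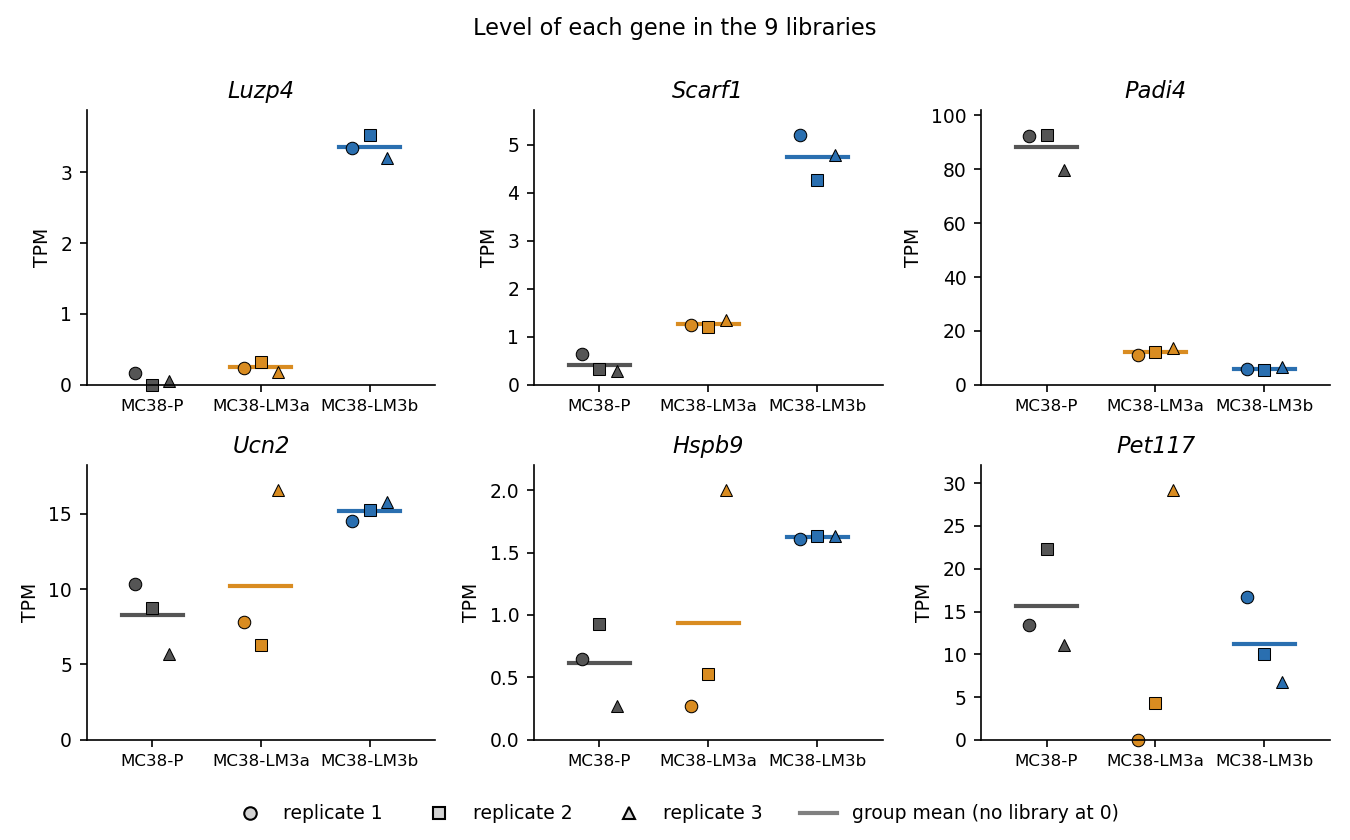
Level of each gene in TPM (y axis, linear from 0, its own scale in each panel) in the 3 groups (x axis); symbols are replicates and bars are group means, drawn only where no library is at 0. Luzp4 and Scarf1 are highest in all MC38-LM3b libraries, Padi4 is highest in MC38-P, and MC38-LM3a replicate 3 lies far above replicates 1 and 2 for Ucn2, Hspb9 and Pet117.

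Luzp4 sits in a cluster of near-identical genes on the X chromosome, and the bases before its start site are shown because they are almost the same in most of its copies with an entry. The longest Luzp4 transcript of GENCODE M21 has 2025 bases, and 13 other genes match it over at least 900 bases at 95% identity or more; 8 of these are listed in the files. The bases before the start come from RefSeq for GRCm38.p6, whereas the processing notes of the submitters name GRCm39. RefSeq gave an entry for 10 of the 13 copies. For 8 of them the bases before the start aligned with Luzp4 without a gap, with 2 to 5 differing bases. For Gm15093 and Gm15114 the best alignment without a gap left 133 of 243 bases different. Below, Luzp4 (chrX:148882326-148882575, plus strand) is followed by Gm15107 (chrX:148180474-148180723, plus strand) and Gm15097 (chrX:149784254-149784472, plus strand), all 5′ to 3′, and capitals mark bases that differ from Luzp4.
Luzp4: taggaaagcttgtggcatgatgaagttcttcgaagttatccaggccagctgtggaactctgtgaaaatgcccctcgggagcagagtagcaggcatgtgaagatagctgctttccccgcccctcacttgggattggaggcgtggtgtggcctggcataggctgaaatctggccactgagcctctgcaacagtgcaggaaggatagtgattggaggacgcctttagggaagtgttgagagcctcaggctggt
Gm15107: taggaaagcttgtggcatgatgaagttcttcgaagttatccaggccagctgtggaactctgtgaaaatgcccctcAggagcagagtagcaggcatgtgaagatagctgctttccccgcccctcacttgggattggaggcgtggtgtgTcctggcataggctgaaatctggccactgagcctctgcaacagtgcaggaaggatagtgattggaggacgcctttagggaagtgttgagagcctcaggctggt
Gm15097: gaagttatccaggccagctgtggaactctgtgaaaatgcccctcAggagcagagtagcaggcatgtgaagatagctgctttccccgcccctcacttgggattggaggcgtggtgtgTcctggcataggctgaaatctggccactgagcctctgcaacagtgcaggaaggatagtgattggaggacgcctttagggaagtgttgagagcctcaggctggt
Each of these copies differed from Luzp4 at 2 bases, over 250 bases for Gm15107 and 219 for Gm15097. The TATAAA box, searched on both strands, was not in the Luzp4 window, and 12.37% of 32851 RefSeq windows of the same length hold it. The RUNX core TGTGGT was searched in the same way and was likewise not found there, against 14.05% of windows.

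Luzp4 itself was close to 0 in MC38-P and MC38-LM3a and was detected at several TPM in MC38-LM3b alone. It was at 0.17, 0 and 0.06 TPM in MC38-P, at 0.24, 0.32 and 0.18 TPM in MC38-LM3a, and at 3.34, 3.52 and 3.20 TPM in MC38-LM3b. The MC38-LM3b libraries lay in a narrow band far above all others, with a mean of 3.35 ± 0.160 TPM (SD, n = 3), 13.6 times the MC38-LM3a mean of 0.247 ± 0.0702 TPM. All MC38-LM3b libraries were above all others for 27.8% of tested genes. MC38-LM3b minus MC38-LM3a was 1.80 on the log2 scale. The derivatives exceeded MC38-P by 1.12 (SE 0.0979, 95% interval 0.90 to 1.33, limma adjusted p = 1.359e-05; exact permutation p = 0.0238). This mean joined 2 unlike values, 0.21 for MC38-LM3a minus MC38-P and 2.02 for MC38-LM3b minus MC38-P, which share the MC38-P libraries. As Luzp4 was chosen for, and passed the filter through, its MC38-LM3b level, the p-values carry no independent support. The difference of the derivatives was under the DEG limit of 1 with the GC and length offsets (0.94, exact permutation p = 0.0833).

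Of the 8 listed copies of Luzp4, Gm15128 and Gm15097 had a level in MC38-LM3a well above MC38-P, and the other 6 were at or under 0.37 TPM in each MC38-LM3a library. They were picked by sequence match after the values were seen, and those tested passed the filter only through the derivatives, so their differences are a description. Gm15128, 98.92% identical to Luzp4 over 2027 bases, was at 0.19, 0.47 and 0.34 TPM in MC38-P, at 1.54, 1.32 and 1.25 TPM in MC38-LM3a, and at 2.40, 1.78 and 1.83 TPM in MC38-LM3b. Its derivative libraries all exceeded its MC38-P libraries, by 1.00 on the log2 scale, and MC38-LM3b minus MC38-LM3a was 0.34. Gm15097 was at 0.11, 0.09 and 0 TPM in MC38-P, at 1.47, 1.32 and 1.86 TPM in MC38-LM3a, and at 1.16, 1.68 and 1.54 TPM in MC38-LM3b. It was higher in the derivatives by 1.23, its derivative groups overlapped, and MC38-LM3b minus MC38-LM3a was -0.05. Gm15107, the nearest listed gene before Luzp4, stayed at or under 1.02 TPM in all libraries. Ott and Gm15085 were listed at the same value in every library, 0.19 TPM at most. The files do not say how reads that match several copies were assigned, so the split of the signal among the copies is uncertain.

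The sum over Luzp4 and its 8 listed copies does not rest on that split among listed genes. The sum was 0.81, 0.56 and 0.60 TPM in MC38-P, 3.59, 3.40 and 3.71 TPM in MC38-LM3a, and 7.38, 8.07 and 8.29 TPM in MC38-LM3b. All 3 groups were apart, with means of 0.657 ± 0.134, 3.57 ± 0.156 and 7.91 ± 0.475 TPM (SD, n = 3). The derivatives exceeded MC38-P by 1.95 on the log2 scale, a description without a test because Luzp4 was chosen for its values and the copies after theirs were seen. For the copies without Luzp4 the difference was 1.63, with 1.45 for MC38-LM3a and 1.81 for MC38-LM3b, both against the same MC38-P libraries. Luzp4 made up 0% to 20.99% of the sum in MC38-P, where the sum itself was under 1 TPM, 6.69%, 9.41% and 4.85% in MC38-LM3a, and 45.3%, 43.6% and 38.6% in MC38-LM3b. Summed over the listed copies, the level was above MC38-P in both derivatives, while the level assigned to Luzp4 itself exceeded 1 TPM in MC38-LM3b only.

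**Figure D2:**
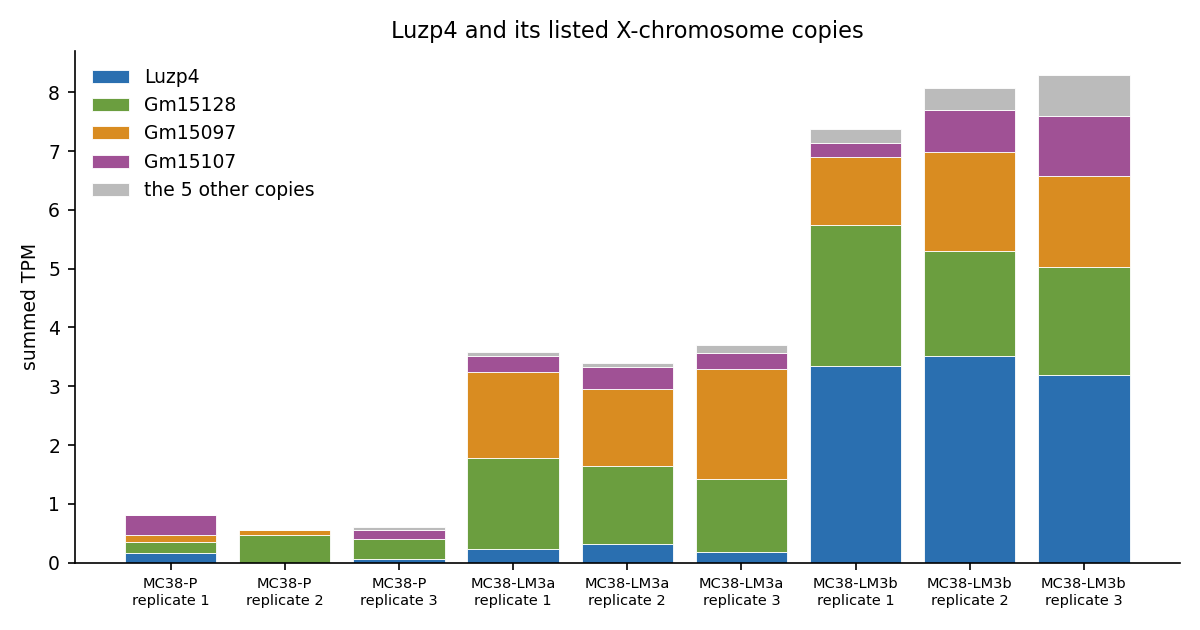
Summed TPM (y axis, linear from 0) of Luzp4 and its 8 listed copies in each of the 9 libraries (x axis); colours are genes, and grey joins the 5 copies of lowest level. The sum is at most 0.81 TPM in MC38-P, 3.40 to 3.71 TPM in MC38-LM3a and 7.38 to 8.29 in MC38-LM3b, where Luzp4 adds 3.20 to 3.52 TPM.

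Among the 21 other tested genes of the TREX and mRNA export list, 0 rose, 6 fell and 15 did not pass the test in the derivatives, with a median of -0.03 beside 0.10 over all tested genes, of which 40.6% passed. The only DEG among them was Nxf7, an X-linked relative of the export receptor Nxf1. Nxf7 averaged 13.6 ± 1.76 TPM in MC38-P, 3.66 ± 0.337 TPM in MC38-LM3a and 2.92 ± 0.549 in MC38-LM3b (SD, n = 3), and fell by 1.78 on the log2 scale (limma adjusted p = 2.300e-06). Poldip3 and Ddx39b, both parts of export complexes, fell by 0.56 and 0.36. The largest positive value, 0.38 for Alyref2, did not pass (limma adjusted p = 0.0783). With the GC and length offsets 1 rose, 10 fell and 10 did not pass, a description because the share of 40.6% is that of the fit without offsets. The 1 that rose was Luzp1 (0.175, limma adjusted p = 0.00576), which is on the list by the name it shares with Luzp4. Luzp1 is counted in the 15 that did not pass without offsets. Germ cell markers were near 0: of 15, 7 were listed and 0 were tested, and their summed level was 0.14 to 0.39 TPM in MC38-P, 0.43 to 0.64 TPM in MC38-LM3a and 0.36 to 1.67 in MC38-LM3b. Their part in the Luzp4 signal was not tested.

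Scarf1 formed steps, lowest in MC38-P, intermediate in MC38-LM3a and highest in MC38-LM3b. It was at 0.64, 0.33 and 0.28 TPM in MC38-P, at 1.24, 1.21 and 1.35 TPM in MC38-LM3a, and at 5.20, 4.26 and 4.78 TPM in MC38-LM3b. No group overlapped another, and the MC38-LM3b mean of 4.75 ± 0.471 TPM was 3.75 times the MC38-LM3a mean of 1.27 ± 0.0737 TPM (SD, n = 3). Of all tested genes, 42.0% did not overlap between MC38-LM3b and MC38-LM3a, and 31.4% did not between the derivatives and MC38-P. The derivatives exceeded MC38-P by 1.36 (SE 0.111, 95% interval 1.11 to 1.60, limma adjusted p = 8.728e-06; exact permutation p = 0.0238). As for Luzp4, these p-values carry no independent support, since Scarf1 was chosen for its MC38-LM3b level and passed the filter through the derivatives. MC38-LM3a minus MC38-P was 0.69 and MC38-LM3b minus MC38-P was 2.03. The transcript of Scarf1 matched no other gene at 90% identity over 100 bases or more. Its neighbour Rilp, a lysosomal adaptor, did not differ in the test (0.01, limma adjusted p = 0.947), and Slc43a2, an amino acid transporter on the other side, fell by 0.61 (limma adjusted p = 0.00117).

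Of 9 other tested genes of the scavenger receptor list 5 rose, 2 fell and 2 did not pass, with a median of 0.40 beside 0.10 over all tested genes, of which 40.6% passed. Cxcl16, a membrane chemokine that also binds oxidised lipoprotein, was a DEG and rose by 1.57, from 1.67 ± 0.422 TPM in MC38-P to 6.05 ± 1.47 TPM in MC38-LM3a and 7.99 ± 1.59 in MC38-LM3b (SD, n = 3; limma adjusted p = 3.772e-05). Lrp1, a large endocytic receptor, rose by 0.97, and Scarf2, the paralogue of Scarf1, by 0.40. Without MC38-P replicate 3 Scarf2 no longer passed (limma adjusted p = 0.131) and 3 rose, 3 fell and 3 did not pass. This recount is a description, since the share of 40.6% is that of the main fit. Colec12, a scavenger receptor with a C-type lectin domain, fell by 1.44 as a DEG, from 26.1 ± 4.09 TPM to 6.97 ± 0.636 TPM in MC38-LM3a and 11.4 ± 0.713 in MC38-LM3b (SD, n = 3; limma adjusted p = 5.349e-06). Of 13 endothelial markers, 10 were listed and 2 were tested, Egfl7 and Cdh5, neither of which passed. The summed level of the listed markers was 16.2 to 20.6 TPM in MC38-P, 15.4 to 17.5 TPM in MC38-LM3a and 15.5 to 17.1 in MC38-LM3b. Egfl7 made up nearly all of it, with means of 16.9, 14.7 and 14.1 TPM in the same order of groups. Of the 13 macrophage markers, 5 were listed and only Cd68 was tested, which rose by 0.45 (limma adjusted p = 0.00132), and the summed level was 28.4 to 30.2 TPM in MC38-P, 34.7 to 41.5 TPM in MC38-LM3a and 40.4 to 46.0 in MC38-LM3b. Nearly all of this sum was Cd68, which is also on the scavenger receptor list, while the other 4 did not exceed 0.79 TPM in any library. Of these 4, Mrc1, Csf1r and Ptprc had their highest group mean in MC38-P (0.617, 0.0867 and 0.0533 TPM), and Lyz2 was at 0 there. The part of other cells in the Scarf1 level was not tested.

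Padi4 was the most abundant of the 6 genes in MC38-P and fell in both derivatives, further in MC38-LM3b. It was at 92.28, 92.64 and 79.89 TPM in MC38-P, at 10.96, 12.17 and 13.76 TPM in MC38-LM3a, and at 6.02, 5.46 and 6.56 TPM in MC38-LM3b. The groups were apart, with means of 88.3 ± 7.26, 12.3 ± 1.40 and 6.01 ± 0.550 TPM (SD, n = 3). As a share of all tested genes, 42.0% were apart between MC38-LM3b and MC38-LM3a and 31.4% between the derivatives and MC38-P. MC38-P exceeded MC38-LM3a 7.18-fold and MC38-LM3b 14.7-fold, and MC38-LM3a exceeded MC38-LM3b 2.04-fold. Padi4 fell by 3.21 in the derivatives (SE 0.0965, limma adjusted p = 6.542e-09; exact permutation p = 0.0119), and only 6 genes had a smaller p-value. MC38-LM3a minus MC38-P was -2.75, MC38-LM3b minus MC38-P was -3.67, and MC38-LM3b minus MC38-LM3a was -0.92, the difference for which Padi4 was chosen.

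Padi4 lies in a cluster of related genes on chromosome 4. Padi1, which acts on keratins and other proteins of epithelia, averaged 2.75 ± 0.723 TPM in MC38-P, 1.01 ± 0.180 TPM in MC38-LM3a and 1.15 ± 0.0493 in MC38-LM3b (SD, n = 3), and fell by 0.83 (limma adjusted p = 5.842e-04). Padi2 was at 2.63, 1.96 and 2.92 TPM in the same order of groups and did not pass (-0.09, limma adjusted p = 0.552). Padi3 was not tested and was at 0.25, 0.34 and 0.38 TPM in MC38-P, at 0.06, 0.09 and 0.04 TPM in MC38-LM3a, and at 0.11, 0.15 and 0.07 TPM in MC38-LM3b, so it too was highest in MC38-P. On the other side of Padi4, Rcc2 and Arhgef10l fell by 0.25 and 0.50. Within 10 listed genes on either side of Padi4, 16 were tested, 9 had an adjusted p-value under 0.05, beside 40.6% of all tested genes, and their median was 0.03. The RefSeq window of 250 bases before the Padi4 start holds the TATAAA box 31 bases before that start, and no TGTGGT. Neutrophil markers were low: of 13, 6 were listed and 1 was tested, Ly6g, which did not pass (-0.30, limma adjusted p = 0.123) but was lower with the GC and length offsets (-0.37, limma adjusted p = 0.0261). Their sum was 4.49 to 8.19 TPM in MC38-P, 3.61 to 5.24 TPM in MC38-LM3a and 3.87 to 5.22 in MC38-LM3b, and their part in the Padi4 level was not tested.

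**Figure D3:**
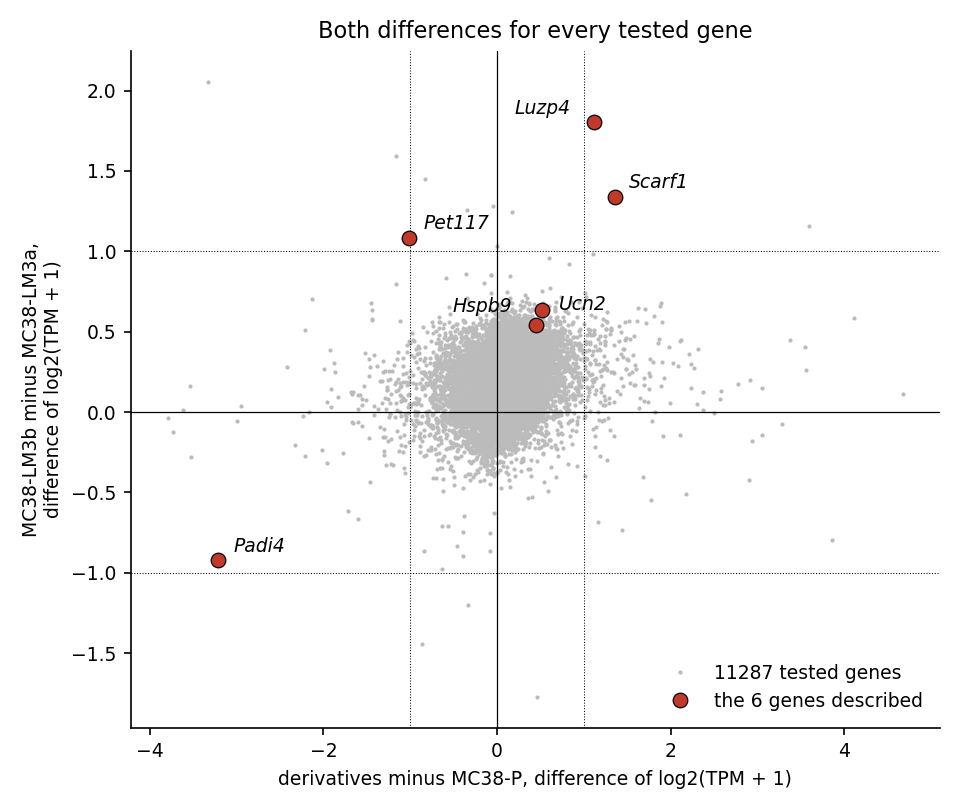
MC38-LM3b minus MC38-LM3a (y axis) against derivatives minus MC38-P (x axis), both as differences of log2(TPM + 1), for the 11287 tested genes (grey) and the 6 genes described (red); dotted lines mark differences of 1. Luzp4 and Scarf1 are beyond 1 on both axes, Padi4 lies at -3.21 and -0.92, and Ucn2 and Hspb9 lie at the edge of the grey cloud. Pet117 lies at -1.01 and 1.08 and did not pass the test against MC38-P.

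Ucn2 was detected in all libraries, and its MC38-LM3a libraries were split into a low pair and a high one. It was at 10.32, 8.73 and 5.70 TPM in MC38-P, at 7.80, 6.31 and 16.56 TPM in MC38-LM3a, and at 14.54, 15.24 and 15.80 TPM in MC38-LM3b. MC38-LM3a replicates 1 and 2 lay within the range of MC38-P, and replicate 3 lay above every MC38-LM3b library. The MC38-LM3b libraries were close together, at 15.2 ± 0.631 TPM (SD, n = 3), and above all MC38-P libraries. The derivatives did not differ from MC38-P in the test (0.52, 95% interval -0.03 to 1.07, limma adjusted p = 0.119; exact permutation p = 0.167). MC38-LM3b minus MC38-LM3a was 0.64 with all libraries, 1.01 without MC38-LM3a replicate 3 and 0.38 without MC38-LM3a replicate 2. Leaving out MC38-LM3a replicate 2 gave 0.65 for the derivatives minus MC38-P (limma adjusted p = 0.0455; exact permutation p = 0.107), and the values with 1 library left out ran from 0.31 to 0.69. Ucn2 was chosen because MC38-LM3a replicate 3 stood apart, so the p-values without replicate 2 carry no independent support.

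The gene that precedes Ucn2 on chromosome 9, on the same strand, is Col7a1, which encodes a collagen of anchoring fibrils. Col7a1 was at 86.56, 72.90 and 55.39 TPM in MC38-P, at 58.26, 53.21 and 97.46 TPM in MC38-LM3a, and at 110.39, 106.15 and 104.26 TPM in MC38-LM3b. The order of the libraries within each of MC38-P and MC38-LM3a was the same as for Ucn2, and within MC38-LM3b it was the reverse. Col7a1 did not pass the test either (0.26, limma adjusted p = 0.269). On the other side, Pfkfb4 did not differ (0.00, limma adjusted p = 0.981). Whether reads of one of the 2 neighbours were counted for the other was not tested. Of the system Ucn2 acts in, 4 of 7 genes were listed. Crhbp, a secreted protein that binds corticotropin-releasing factor and urocortins, rose by 0.96 (limma adjusted p = 0.00134), from 3.40 ± 0.944 TPM in MC38-P to 6.63 ± 1.92 TPM in MC38-LM3a and 8.42 ± 0.367 in MC38-LM3b (SD, n = 3). The receptor Crhr2 was listed at 0.05 TPM at most, and Ucn did not exceed 1.67 TPM and was not tested.

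Hspb9 followed Ucn2 at a lower level. It was at 0.65, 0.93 and 0.27 TPM in MC38-P, at 0.27, 0.53 and 2.00 TPM in MC38-LM3a, and at 1.61, 1.63 and 1.63 TPM in MC38-LM3b. MC38-LM3a replicate 3 was again above all MC38-LM3b libraries, and replicates 1 and 2 were at the level of MC38-P. The difference of the derivatives from MC38-P did not pass (0.45, 95% interval -0.08 to 0.97, limma adjusted p = 0.157; exact permutation p = 0.190), and the values with 1 library left out ran from 0.26 to 0.59. MC38-LM3b minus MC38-LM3a was 0.54, 0.91 without MC38-LM3a replicate 3 and 0.29 without MC38-LM3a replicate 1. Of 5 other small heat shock proteins tested, 4 fell and 1 rose, beside 40.6% of all tested genes past the same limit, and their median was -0.49 beside 0.10. Hspb1 fell by 0.49 from 249 ± 1.82 TPM in MC38-P to 185 ± 11.3 TPM in MC38-LM3a and 169 ± 4.62 in MC38-LM3b (SD, n = 3), Cryab by 0.51 and Hspb6 by 0.56. Hspb11, which is a part of the intraflagellar transport machinery, rose by 0.54 (limma adjusted p = 1.635e-04). None of these changed sign under quantile normalization or the GC and length offsets. Hspb8, which fell by 0.15, did not pass without MC38-P replicate 3 (limma adjusted p = 0.0672). Beside Hspb9 in the annotation, Kat2a did not pass (-0.27, limma adjusted p = 0.0558) and Rab5c rose by 0.41 (limma adjusted p = 5.188e-05).

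Pet117 varied widely within each group. It was at 13.47, 22.34 and 11.07 TPM in MC38-P, at 0, 4.32 and 29.19 TPM in MC38-LM3a, and at 16.73, 10.08 and 6.79 TPM in MC38-LM3b. MC38-LM3a held both the lowest and the highest of the 9 values, and the ranges of MC38-P and MC38-LM3b overlapped. The difference of the derivatives from MC38-P did not pass (-1.01, 95% interval -2.77 to 0.75, limma adjusted p = 0.334; exact permutation p = 0.393). MC38-LM3b minus MC38-LM3a was 1.08 with all libraries, 2.32 without MC38-LM3a replicate 3 and -0.14 without MC38-LM3a replicate 1. An entry of 0 beside 10 TPM or more in another library occurred for 8 of the 16399 listed genes, Pet117 among them, so it is read only as listed at 0.

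The whole longest transcript of Pet117, 693 bases, is 100% identical to a stretch of a transcript of Kat14, an overlapping gene on chromosome 2 that encodes a histone acetyltransferase subunit. Kat14 was at 38.06, 38.47 and 33.60 TPM in MC38-P, at 29.36, 31.55 and 38.75 TPM in MC38-LM3a, and at 39.13, 35.84 and 39.31 TPM in MC38-LM3b. Its order within MC38-P and within MC38-LM3a was that of Pet117, its order within MC38-LM3b was not, and it did not pass the test (-0.05, limma adjusted p = 0.716). Reads from the shared stretch cannot be told apart, and the Pet117 values are uncertain for that reason. The sum of Pet117 and Kat14 was 51.53, 60.81 and 44.67 TPM in MC38-P, and 29.36, 35.87 and 67.94 TPM in MC38-LM3a. It was 55.86, 45.92 and 46.10 TPM in MC38-LM3b, so MC38-LM3a again held the lowest and the highest value. Of 28 other tested genes of cytochrome c oxidase assembly 4 rose, 5 fell and 19 did not pass, with a median of -0.09, beside 40.6% of all tested genes past the test, and none was a DEG. Pet100, a chaperone of the same process, rose by 0.51 (limma adjusted p = 0.0404) but did not pass with quantile normalization (0.0731) or without MC38-P replicate 3 (0.0714), and Cox14 fell by 0.68, from 132 ± 11.2 TPM in MC38-P to 86.3 ± 14.7 TPM in MC38-LM3a and 78.4 ± 2.96 in MC38-LM3b (SD, n = 3). With quantile normalization 1 rose and 11 fell, with the GC and length offsets 4 rose and 14 fell, and without MC38-P replicate 3 only 2 rose and 5 fell. The share of 40.6% belongs to the main fit, and none is given for these settings, so these counts are a description.

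MC38-LM3a replicate 3 was then placed against replicates 1 and 2 of its group for each gene. Ucn2, Hspb9 and Pet117 were selected because this library stood apart for them, so their values restate that choice. Over all tested genes it exceeded the mean of the other pair by a median of 0.23 on the log2 scale, and it was above both for 74.5% of genes. For Luzp4, Scarf1 and Padi4 the differences were -0.12, 0.08 and 0.23, at percentiles 10.5, 28.2 and 50.4 of all tested genes. For Ucn2, Hspb9 and Pet117 they were 1.13, 1.11 and 3.71, at percentiles 99.87, 99.86 and 99.99. On a scale with 0 at replicates 1 and 2 and 1 at the MC38-LM3b mean, replicate 3 lay at -0.07 for Luzp4, 0.06 for Scarf1 and -0.28 for Padi4. On the same scale it lay at 1.12 for Ucn2, 1.21 for Hspb9 and 1.60 for Pet117. Of the 25 genes in which MC38-LM3b differed from MC38-LM3a replicates 1 and 2 by more than 1, 32% lay under 0.25 on this scale and 60% lay over 0.5, with a median of 0.71.

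MC38-P replicate 3 stood apart in the other direction. Its difference from MC38-P replicates 1 and 2 was -0.65 for Ucn2, -0.49 for Hspb9 and -0.61 for Pet117, at percentiles 0.98, 7.6 and 1.6 of all tested genes. For Luzp4, Scarf1 and Padi4 it was -0.03, -0.21 and -0.21. Across 11096 genes with a known transcript length, the difference of MC38-LM3a replicate 3 had a Spearman correlation of 0.64 with that length, and the difference of MC38-P replicate 3 one of -0.62. These are descriptions across genes, which are no independent replicates. Hspb9 and Pet117, with 726 and 693 bases, are among the shortest tested genes, and Ucn2 has 1155 bases. The 150 genes of at most 700 bases had a median difference of -0.20 in MC38-LM3a replicate 3, and Ucn2 and Hspb9 are longer than that limit. Ucn2, Hspb9 and Pet117, chosen because this library stood apart, were at 1.13, 1.11 and 3.71. The part of transcript length in the values of these 3 genes was not tested.

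**Figure D4:**
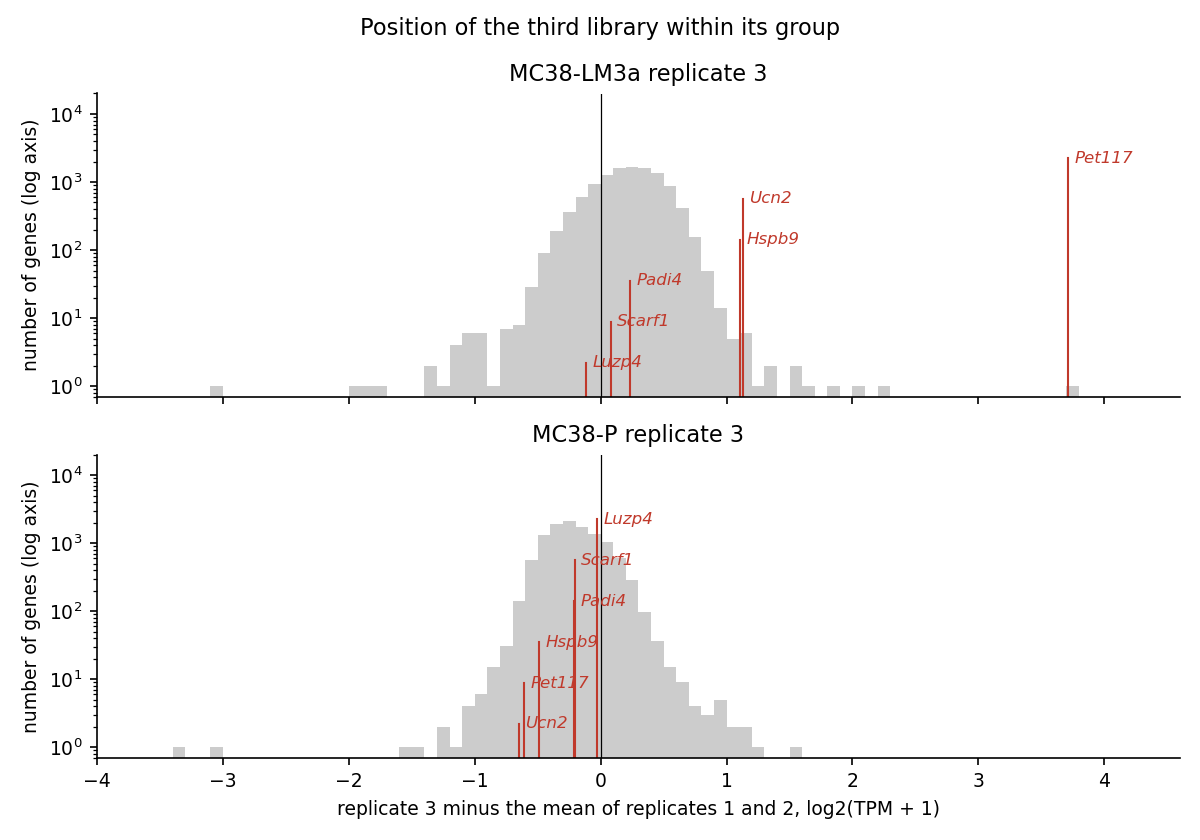
Number of tested genes (y axis, log scale) by the difference of replicate 3 from the mean of replicates 1 and 2 on the log2(TPM + 1) scale (x axis), in MC38-LM3a (top) and MC38-P (bottom); red lines mark the 6 genes, and their heights only separate the names. Ucn2, Hspb9 and Pet117 lie at 1.13, 1.11 and 3.71 in MC38-LM3a and at -0.65, -0.49 and -0.61 in MC38-P.

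The genes most like each one were found by the Pearson correlation of log2(TPM + 1) over the 9 libraries, among 1611 tested genes whose log2 values spanned at least 1. The libraries of a group share their line, and the correlations carry no test. Nearest to Luzp4 were Scarf1 (r = 0.963), the sialyltransferase St6gal1 (0.951) and Clstn3 (0.934), a calsyntenin. Nearest to Scarf1 were the guanylate-binding protein Gbp3 (0.989), St6gal1 (0.983) and Clstn3 (0.979). St6gal1 ranged from 3.13 to 3.97 TPM in MC38-P, from 4.26 to 4.85 TPM in MC38-LM3a and from 7.45 to 8.49 TPM in MC38-LM3b. Nearest to Padi4 were the alcohol dehydrogenase Adh7 (0.995), the interferon-induced Ifitm1 (0.992) and the tubulin Tubb2b (0.990). Ifitm1 ranged from 276 to 296 TPM in MC38-P, from 93.3 to 117 TPM in MC38-LM3a and from 67.5 to 72.6 TPM in MC38-LM3b. St6gal1 showed the stepwise order of Scarf1, and Ifitm1 that of Padi4, without overlap between groups.

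Nearest to Ucn2 were Vps13c (0.987), Golgb1 (0.986) and 4932438A13Rik (0.985), and nearest to Hspb9 were Rnf213 (0.967), Syne1 (0.964) and Fryl (0.963). Their longest transcripts have 11001 to 27908 bases, whereas Ucn2 and Hspb9 have 1155 and 726. Golgb1, a large Golgi protein, was at 27.18, 24.41 and 16.81 TPM in MC38-P, at 22.37, 21.11 and 39.51 TPM in MC38-LM3a, and at 40.61, 40.47 and 39.29 TPM in MC38-LM3b. Its MC38-LM3a replicate 3 stood at the MC38-LM3b level and its MC38-P replicate 3 was the lowest of its group, as for Ucn2. Nearest to Pet117 were Thada (0.874), Bard1 (0.863) and Cplane2 (0.856), with lower correlations than for the other 5 genes. Among the 6 genes themselves, Luzp4 and Scarf1 correlated at 0.963 and Ucn2 and Hspb9 at 0.938. Both genes of each pair were chosen for the same libraries, so these correlations restate the choice. Scarf1 and Padi4 correlated at -0.880, and Pet117 with Luzp4 and Scarf1 at 0.04 and -0.03.

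**Figure D5:**
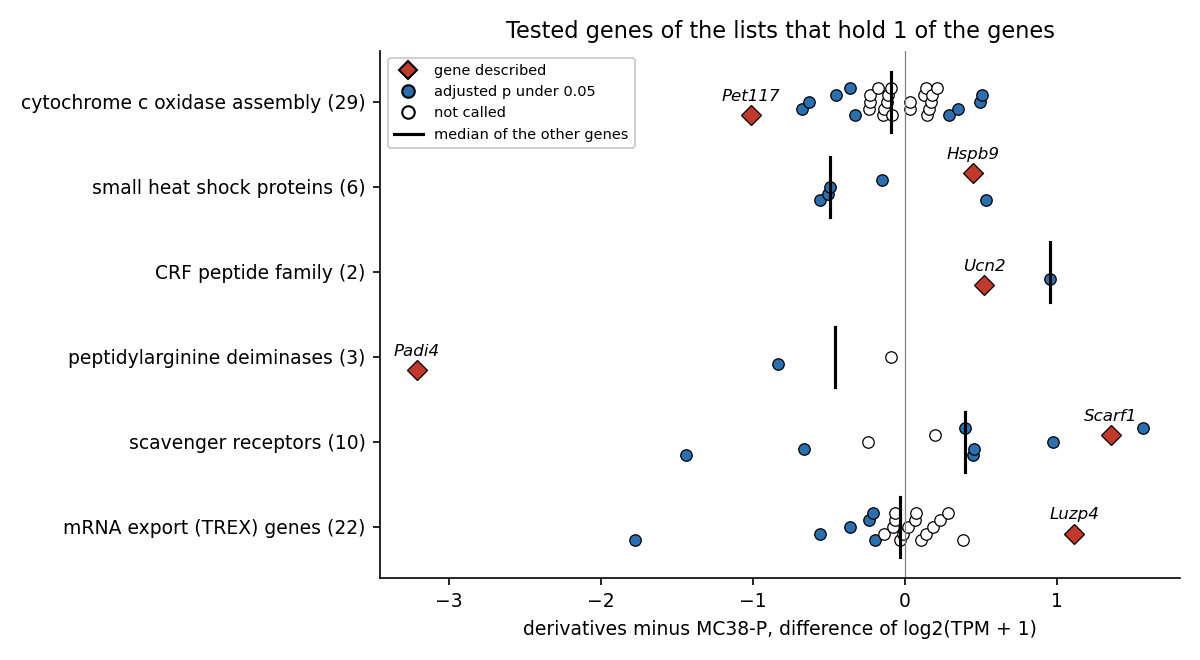
Difference of log2(TPM + 1) between the derivatives and MC38-P (x axis) for every tested gene of the 6 lists that hold 1 of the genes (y axis, with the number of genes tested); red diamonds are the genes described, blue points have an adjusted p-value under 0.05, white points do not, and black lines are medians of the other genes. Padi4 at -3.21 lies far below Padi1 and Padi2, Scarf1 at 1.36 lies beside Cxcl16 at 1.57, and Luzp4 at 1.12 is above all other genes of the mRNA export list.

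Ly9, a receptor of the SLAM family, is named because it passed both DEG limits between the derivatives. It was at 0.04, 0 and 0 TPM in MC38-P, at 6.92, 6.50 and 8.16 TPM in MC38-LM3a, and at 17.85, 16.14 and 17.60 TPM in MC38-LM3b. Its MC38-LM3b minus MC38-LM3a difference was 1.16, beside 1.80 for Luzp4 and 1.34 for Scarf1.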

How the data were processed

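The authors deposited TPM values, rounded to 2 decimals, for 16399 genes in each of 9 libraries, 3 per group. Groups were taken from the sample titles. The submitters' processing notes name HISAT and GRCm39; the counting step and its treatment of shared reads are not given in the sources used here. The study's own test needs counts, so log2(TPM + 1) was fitted here by limma 3.58.1 (R 4.3.3) with a trended variance, 1 mean per group and no covariate, for genes at 1 TPM or more in 3 libraries. The DEG limits, 0.05 for the adjusted p-value and 1 for the absolute log2 difference, are those of the methods. p-values measure the spread between these cultures only. On simulated data of 11287 genes for the derivatives against MC38-P, 200 of 200 genes changed by 2 on the log2 scale were recovered, with 0 false calls among the unchanged genes. The simulation had independent noise and the same change in both derivatives. It held no trend with transcript length in a library and no change in MC38-LM3b alone.

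The members and gene lists were chosen with earlier results of these data known. Genes named are the 6 genes, other DEGs between the derivatives, the 3 genes most correlated with each, the largest changes and all DEGs of each list, and neighbours; the copies of Luzp4 and Col7a1 beyond that rule were singled out after their values were seen. Transcript lengths, GC content and matches (BLAST+ 2.17.0, at least 90% identity over 100 bases) used GENCODE M21, and windows before start sites used RefSeq for GRCm38.p6, matched by NCBI Gene number for 4 of the 6 genes; because the build differs, gene coordinates are not printed. Alternatives changed the pseudocount to 0.1, the filter, the scaling (quantile, or loess offsets for GC content and length, available for 98.3% of tested genes), the replicate block, the libraries in the fit, and left out each library. Sums of copies, leaving out replicate 3 of both MC38-P and MC38-LM3a, and the offsets with the smaller pseudocount were added after seeing the data.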

Additional observations from a re-analysis of the deposited data

Results flagged for a closer look

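Luzp4, Scarf1 and Padi4 differed between the derivatives, with MC38-LM3b minus MC38-LM3a at 1.80 for Luzp4, 1.34 for Scarf1 and -0.92 for Padi4 on the log2(TPM + 1) scale. These genes were selected on this difference, so it stands as a description and no test of it is given. The 3 MC38-LM3b libraries lay above all MC38-LM3a libraries for Luzp4 and Scarf1 and below all of them for Padi4. These 2 groups did not overlap for 42.0% of all tested genes either.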

How the results depend on the processing

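Luzp4, Scarf1 and Padi4 kept their direction and an adjusted p-value under 0.05 against MC38-P in all alternatives run. For Luzp4 and Scarf1, chosen for their MC38-LM3b level and tested because of the groups in which they were high, this is no independent support. Luzp4 was at 1.00 with quantile normalization and 0.94 with the GC and length offsets, under the DEG limit in both. The offsets and quantile scaling moved the median MC38-LM3b minus MC38-LM3a difference of all genes from 0.21 to 0.00 and 0.01. DEGs of the derivatives numbered 360, and 564 with a pseudocount of 0.1; leaving out a library gave 351 to 370. That pseudocount moved Luzp4 from 1.12 to 2.74, Scarf1 from 1.36 to 2.38, Hspb9 from 0.45 to 0.82 and Pet117 from -1.01 to -1.59 against MC38-P, and Luzp4 from 1.80 to 3.34, Hspb9 from 0.54 to 1.13 and Pet117 from 1.08 to 2.17 between the derivatives, where the mean TPM of Pet117 was 11.2 in both groups. DEGs between MC38-LM3b and MC38-LM3a numbered 3, and 3 to 19 when a library was left out, the highest without MC38-LM3a replicate 3. By the adjusted p-value alone, 6 of 11287 tested genes passed between the derivatives with all libraries. Leaving out MC38-LM3a replicate 3 raised that number to 6358. Without replicate 3 of both MC38-P and MC38-LM3a there were 20 DEGs between the derivatives, and 8032 genes passed by the adjusted p-value alone. Pet117 was then at -1.83 against MC38-P (limma adjusted p = 0.0150, exact permutation p = 0.238). Without MC38-LM3a replicate 3 alone, Pet117 was at -1.63 (limma adjusted p = 0.00946; exact permutation p = 0.196). Pet117 was chosen because that library stood apart, so the p-values of fits without it carry no independent support. With a library left out, Pet117 ranged from -1.63 to -0.40 and Ucn2 from 0.31 to 0.69, and the cause was not tested.

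Correlations of deviations from the group mean between same-numbered libraries ran from -0.66 to 0.07, the lowest for replicate 3 of MC38-P and MC38-LM3a. Libraries with different numbers were not compared, so pairing by replicate number was not tested. A replicate block gave 361 DEGs against MC38-P and 2 between the derivatives. The exact permutation p-value of Luzp4 was 0.0833 with the offsets and 0.0357 to 0.143 with a library left out, and that of Scarf1 0.0357 to 0.107 there. Fits with a library left out have fewer assignments, so their smallest possible p-value is higher. The sum of Luzp4 and its copies ranged from 1.84 to 2.05 with a library left out, against 1.95. Depth is unknown, so values under about 1 TPM, as for Luzp4 outside MC38-LM3b, cannot be given a counting error.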
